A study of Mus musculus with 6 samples.

Results

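Slc2a4, Irs2, Pik3r1, Pik3ip1, Grb14 and Pdk4 encode proteins that carry out or restrain insulin signalling, glucose uptake and pyruvate use. They were followed in epididymal white adipose tissue, the visceral fat pad beside the epididymis. The 6 genes were chosen by name and were found by their Ensembl identifiers among the 3162 genes held in every file. All 6 were tested, as were 2999 genes in all whose average reached 1 FPKM. FPKM counts sequenced fragments relative to transcript length and library size, so levels of different genes can be compared per length. The mice fasted for 24 h and the fed mice were wild-type males of the C57BL/6J strain, 16 weeks old, with 3 libraries in each group. Each library came from a weighed piece of whole fat tissue, which holds adipocytes, vessels, blood and stromal cells. In such bulk samples fewer cells of a type and less RNA per cell cannot be told apart.

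Insulin binds a receptor tyrosine kinase that phosphorylates docking proteins such as IRS2. These recruit the regulatory subunit of phosphatidylinositol 3-kinase (PI3K), whose lipid product activates the kinase AKT. In fat cells AKT then sends vesicles with the glucose transporter GLUT4 to the cell surface and keeps the FOXO transcription factors out of the nucleus, so FOXO target genes are held down after a meal.

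Promoter windows from RefSeq (build GRCm38.p6), each reaching from 250 bases before a start site to 50 bases after it, are shown for the 3 genes that rose and for both genes with the deepest falls. They were searched on both strands for 10 motifs, and capitals mark every match. The motifs were a FOXO core (TGTTTAC), an insulin response element (CAAAACAA), a glucocorticoid half-site (AGAACA), an E-box (CACGTG), a sterol response element (TCACNCCAC), a cAMP response half-site (TGACG), a PPAR direct repeat (AGGTCA on both sides of 1 base), a GC box (GGGCGG), the promoter element known by its letters as the CCAAT box, and a TATA box with the search string TATAAA.
Irs2, chr8:11008880-11009179, minus strand: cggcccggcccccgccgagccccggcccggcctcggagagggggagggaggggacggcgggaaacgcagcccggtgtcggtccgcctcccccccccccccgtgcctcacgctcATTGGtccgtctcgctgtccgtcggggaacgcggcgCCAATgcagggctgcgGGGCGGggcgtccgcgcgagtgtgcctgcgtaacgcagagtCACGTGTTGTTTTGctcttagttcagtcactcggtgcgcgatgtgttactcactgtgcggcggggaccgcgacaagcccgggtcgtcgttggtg
Pik3ip1, chr11:3330481-3330780, plus strand: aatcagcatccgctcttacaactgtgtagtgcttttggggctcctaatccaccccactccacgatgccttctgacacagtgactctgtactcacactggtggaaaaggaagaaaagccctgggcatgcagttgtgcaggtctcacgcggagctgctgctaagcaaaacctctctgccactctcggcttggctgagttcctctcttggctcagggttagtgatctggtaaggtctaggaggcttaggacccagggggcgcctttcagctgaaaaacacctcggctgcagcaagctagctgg
Pdk4, chr6:5496229-5496528, minus strand: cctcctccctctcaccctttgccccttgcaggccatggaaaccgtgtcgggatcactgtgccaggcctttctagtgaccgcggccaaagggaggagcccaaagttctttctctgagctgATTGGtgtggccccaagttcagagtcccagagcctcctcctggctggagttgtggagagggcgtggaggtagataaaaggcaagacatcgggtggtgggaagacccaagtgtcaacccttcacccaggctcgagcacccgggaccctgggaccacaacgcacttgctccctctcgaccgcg
Pik3r1, chr13:101768168-101768467, minus strand: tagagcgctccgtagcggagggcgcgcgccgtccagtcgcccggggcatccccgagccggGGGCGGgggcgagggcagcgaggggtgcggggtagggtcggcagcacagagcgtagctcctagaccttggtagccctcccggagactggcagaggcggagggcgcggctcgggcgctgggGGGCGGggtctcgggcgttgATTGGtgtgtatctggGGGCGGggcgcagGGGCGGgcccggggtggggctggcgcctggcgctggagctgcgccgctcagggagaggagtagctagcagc
Grb14, chr2:65022717-65023016, minus strand: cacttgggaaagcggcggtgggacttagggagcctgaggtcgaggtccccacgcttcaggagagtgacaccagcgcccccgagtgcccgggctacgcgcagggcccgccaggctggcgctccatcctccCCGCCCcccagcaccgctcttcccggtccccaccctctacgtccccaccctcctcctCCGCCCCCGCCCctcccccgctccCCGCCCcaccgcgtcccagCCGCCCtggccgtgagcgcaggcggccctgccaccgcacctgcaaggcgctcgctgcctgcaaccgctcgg

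The Irs2 window held an E-box that starts 44 bases before the start site, followed without overlap by an insulin response element on the opposite strand that starts 38 bases before it. An insulin response element was present in 2.51% and an E-box in 7.15% of the 32851 windows of that length. The FOXO core motif, searched by its exact letters TGTTTAC and found in 3.65% of windows, matched in none of the 5 windows shown (0). Sites with other letters were not counted under this name, so this does not show that FOXO sites are absent. The window of Pik3ip1 held no match to any of the 10 motifs (0), and that of Pdk4 held 1 CCAAT box. The windows of Pik3r1 and Grb14 held 4 and 5 GC boxes. At least 1 GC box was present in 35.7% of windows, but the number of matches per window was not compared with other windows of like GC content. GC contents were 75.7% for Pik3r1 and 75.3% for Grb14, against 72% for Irs2, 60.7% for Pdk4 and 54.7% for Pik3ip1. A second Pik3r1 start site, with a window at chr13:101692581-101692880 and a GC content of 43.7%, had 1 TATA box and 1 cAMP response half-site. The deposited values are given per gene, so transcripts from the 2 Pik3r1 start sites could not be separated. Start sites were those of RefSeq and do not all match the gene coordinates given below. For Irs2 the start site, at 11008929, lay upstream of the gene as given, which ends at 11008458 on the minus strand. For Grb14 it lay inside the gene, at 65022766, with the gene reaching to 65024987.

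In fasted fat the docking protein gene Irs2, the PI3K inhibitor gene Pik3ip1 and the pyruvate dehydrogenase kinase gene Pdk4 rose. The receptor inhibitor gene Grb14, the PI3K regulatory subunit gene Pik3r1 and the glucose transporter gene Slc2a4 fell. All 6 passed limma's test on log2(FPKM + 1), with Benjamini-Hochberg p-values over the 2999 genes and a threshold of 0.05. So did 90.5% of those genes, 41.1% being higher and 49.4% lower in fasted tissue. In each of the 6 the fasted and fed values did not overlap, as in 93.4% of the genes tested. Hardly any gene held was near no change, with 18 of the 2999 at a log2 fold change from -0.2 to 0.4, and the rule by which the genes were chosen is not stated in the labels. Passing the test is therefore no sign that these 6 genes stand apart, and the size and order of their levels are what the data show. When p-values were adjusted over all 55450 annotated genes, with untested genes given the largest possible p, 12.1% of the genes tested passed. These were 5.74% that were higher in fasted tissue, Pik3ip1 among them, and 6.4% that were lower, among them Pik3r1 and Slc2a4.

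**Figure D1:**
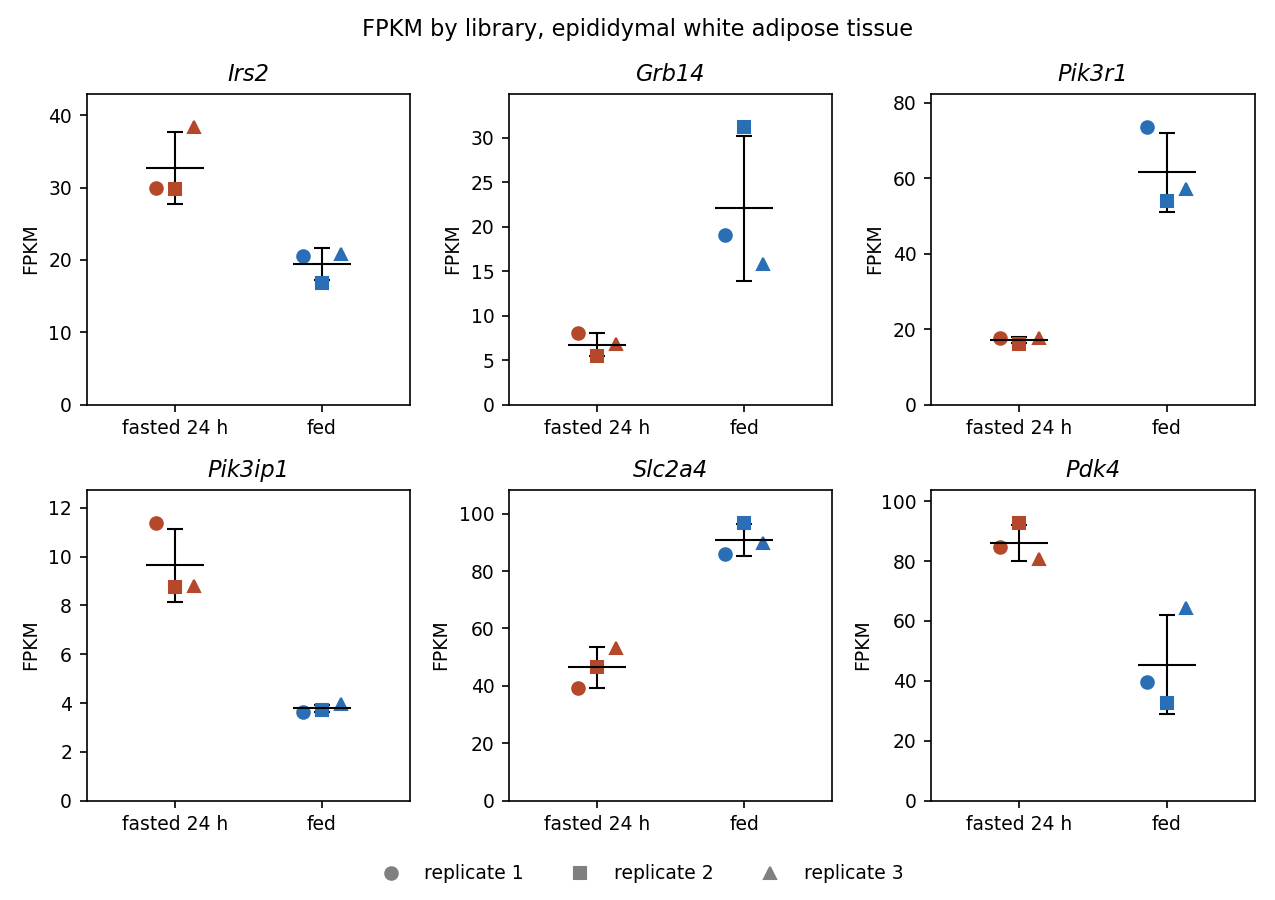
FPKM of each gene in the 3 fasted and the 3 fed libraries, with 1 panel per gene and its own linear axis from 0; symbols mark replicates, the long bar is the group mean and the whiskers are 1 SD. No panel shows overlap between the groups, and the fed values of Grb14 (15.8 to 31.2) and Pdk4 (32.5 to 64.2) are the most spread.

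Irs2 (ENSMUSG00000038894, chromosome 8, 10984681 to 11008458, minus strand, GRCm38) encodes a docking protein that the active receptor phosphorylates. It had 29.9, 29.7 and 38.4 FPKM in the fasted libraries, against 20.6, 16.9 and 20.8 FPKM in the fed ones. Every fasted value was above every fed value, and the lowest fasted library exceeded the highest fed one 1.43-fold. The means were 32.7 ± 4.95 FPKM fasted and 19.4 ± 2.20 FPKM fed (SD, n = 3 each). On the log2(FPKM + 1) scale Irs2 was 0.72 ± 0.15 higher in fasted tissue (SE; adjusted p = 0.00554 by limma, and 0.102 when adjusted over all annotated genes). An exon of Irs2 overlaps the non-coding gene 9530052E02Rik on the opposite strand, and reads of both cannot be told apart where strand was not used, which the labels do not state.

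Grb14 (ENSMUSG00000026888, chromosome 2, 64912476 to 65024987, minus strand) encodes an adaptor that binds the activated insulin receptor and inhibits its kinase. It had 8.03, 5.42 and 6.77 FPKM in fasted tissue, against 19.1, 31.2 and 15.8 FPKM in fed tissue. The fed libraries spread more widely than the fasted ones, with fed replicate 2 nearly double fed replicate 3, a ratio of 1.97. Group means were 6.74 ± 1.31 FPKM fasted and 22.1 ± 8.12 FPKM fed (SD, n = 3 each). The log2 fold change on log2(FPKM + 1) came to -1.53 ± 0.25 (limma adjusted p = 0.00276, and 0.0511 over all annotated genes). Leaving out single libraries gave changes from -1.73 to -1.26.

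Pik3r1 (ENSMUSG00000041417, chromosome 13, 101680563 to 101768217, minus strand) encodes the regulatory subunits p85α, p55α and p50α, which bind phosphorylated docking proteins and both stabilise and restrain the catalytic subunit. The fasted libraries had 17.6, 16.1 and 17.7 FPKM, and the fed libraries 73.6, 54.0 and 57.1 FPKM. Fasted values lay within 1.09-fold of each other, and the lowest fed value was 3.06 times the highest fasted one, the widest separation among the 6 genes. Means were 17.1 ± 0.861 FPKM fasted and 61.6 ± 10.6 FPKM fed (SD, n = 3 each). On the log2(FPKM + 1) scale Pik3r1 changed by -1.78 ± 0.14 (adjusted p = 0.000389 by limma, and 0.00719 over all annotated genes). By size of change it ranked 87th among the genes with a lower level in fasted tissue, and by p-value 19th among the 2999.

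Pik3ip1 (ENSMUSG00000034614, chromosome 11, 3330401 to 3342971, plus strand) encodes a membrane protein that binds the catalytic subunit of PI3K and inhibits it. Its values were 11.4, 8.76 and 8.80 FPKM in fasted and 3.65, 3.73 and 3.95 FPKM in fed tissue. The fed values were nearly identical, with a coefficient of variation of 4.11%, and all fasted values were at least 2.22 times the highest of them. Mean FPKM was 9.65 ± 1.50 fasted and 3.78 ± 0.155 fed (SD, n = 3 each), a ratio of 2.55. On the log2(FPKM + 1) scale, which understates changes of low genes, the fold change was 1.15 ± 0.15 (limma adjusted p = 0.00130, and 0.0241 over all annotated genes), and with a pseudocount of 0.1 it was 1.32. An exon overlaps the non-coding gene Gm12592 on the opposite strand.

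Slc2a4 (ENSMUSG00000018566, chromosome 11, 69942539 to 69948188, minus strand) encodes GLUT4, the transporter that insulin moves to the surface of fat and muscle cells. It had 39.2, 46.7 and 53.3 FPKM in fasted libraries, against 85.9, 96.8 and 89.7 FPKM in fed libraries. The fed libraries differed little from each other, and the highest fasted value stayed 32.6 FPKM below the lowest fed one. With means of 46.4 ± 7.07 FPKM fasted and 90.8 ± 5.53 FPKM fed (SD, n = 3 each), the ratio was 0.511 and the log2 fold change -0.96 ± 0.14 (limma adjusted p = 0.00192, and 0.0355 over all annotated genes).

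Pdk4 (ENSMUSG00000019577, chromosome 6, 5483351 to 5496309, minus strand) encodes a kinase that switches off pyruvate dehydrogenase and so spares glucose. It had 84.6, 92.8 and 80.8 FPKM in fasted tissue and 39.6, 32.5 and 64.2 FPKM in fed tissue. Fasted libraries were close together, whereas fed replicate 3 was 1.98 times fed replicate 2, so the gap between the groups was the narrowest of the 6 in relative terms, at 1.26-fold. Means were 86.1 ± 6.12 FPKM fasted and 45.4 ± 16.7 FPKM fed (SD, n = 3 each), and on the log2(FPKM + 1) scale the rise was 0.96 ± 0.23 (adjusted p = 0.00836 by limma, and 0.155 over all annotated genes). Leaving out fed replicate 3 raised the change to 1.24 and leaving out fed replicate 2 lowered it to 0.76, the extremes when single libraries were left out.

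**Figure D2:**
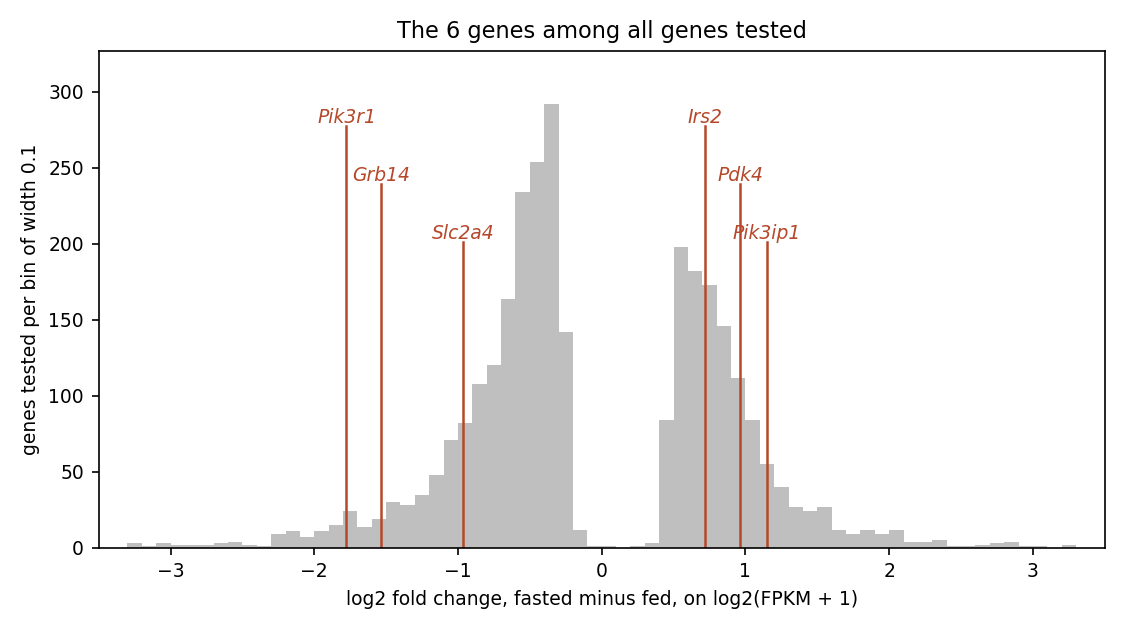
Number of genes tested (y axis, bins of width 0.1) by log2 fold change, fasted minus fed, on log2(FPKM + 1), from -3.5 to 3.5, with a line at each of the 6 genes; line heights carry no value. Bins between -0.2 and 0.4 are almost empty, with 18 genes, and Pik3r1 (-1.78) and Grb14 (-1.53) lie in the thinner tail of the falls.

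The order of the 6 genes by level differed between the groups. In fasted tissue Pdk4 stood first at a mean of 86.1 FPKM, then Slc2a4 (46.4), Irs2 (32.7), Pik3r1 (17.1), Pik3ip1 (9.65) and Grb14 (6.74). In fed tissue Slc2a4 stood first at 90.8 FPKM, followed by Pik3r1 (61.6), Pdk4 (45.4), Grb14 (22.1), Irs2 (19.4) and Pik3ip1 (3.78). Neighbours in the fasted order did not overlap, though Slc2a4 and Irs2 came close, at 39.2 FPKM for the lowest Slc2a4 value and 38.4 FPKM for the highest Irs2 value. In the fed order Pik3r1 and Pdk4 overlapped, as did Grb14 and Irs2, so neither pair can be ordered beyond the spread between libraries. Among all genes tested Pdk4 ranked 376th by fasted and 743rd by fed mean level, and Pik3r1 1405th by fasted and 602nd by fed mean level.

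**Figure D3:**
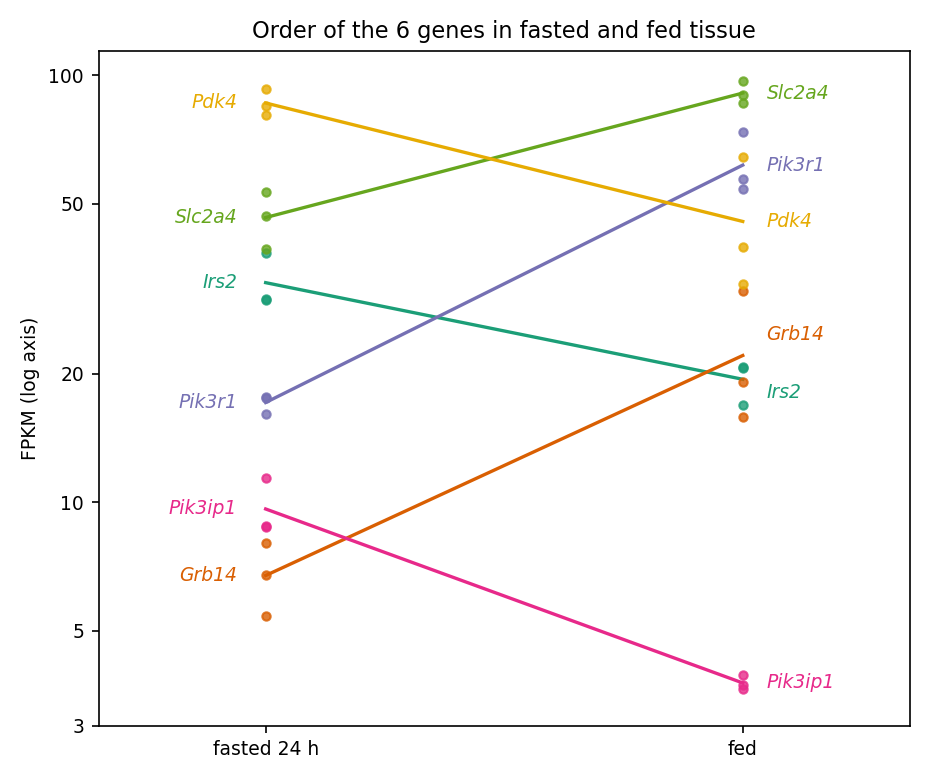
Mean FPKM (log axis) of the 6 genes in fasted and fed tissue, joined by a line per gene, with the 3 libraries of each group as points. Some lines of genes that rose cross those of genes that fell, and Pdk4 (86.1 FPKM) tops the fasted side and Slc2a4 (90.8 FPKM) the fed side.

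Ratios between genes of the same library do not change when a library is rescaled. Pairs of the 6 genes number 15, and the ratio of Grb10 to Grb14 was added, giving 16 pairs. Groups did not overlap in 12 of the 16 pairs. For genes that moved in opposite directions this was fixed in advance, because the groups of each gene alone did not overlap. Only pairs of genes that moved in the same direction could have come out either way. The exact permutation test on 3 against 3 libraries cannot go below p = 0.1 (two-sided), which those 12 pairs reached, with an adjusted p of 0.133 over the 16 pairs. The widest shift was in Pik3r1 over Pik3ip1, the PI3K regulatory subunit over the PI3K inhibitor. It was 1.54, 1.84 and 2.01 in the fasted libraries, against 20.2, 14.5 and 14.5 in the fed libraries, a 9.04-fold lower geometric mean in fasted tissue. Pik3r1 was thus the more abundant of the pair per length in every library, but by far less in fasted than in fed libraries.

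Irs2 over Pik3r1, the docking protein over the subunit it recruits, was 1.70, 1.84 and 2.17 fasted and 0.280, 0.312 and 0.364 fed, so the more abundant of the pair was Irs2 in every fasted library and Pik3r1 in every fed one. Slc2a4 over Pdk4 changed places likewise, at 0.464, 0.503 and 0.660 in fasted libraries, against 2.17, 2.98 and 1.40 in fed libraries. Of the 6 pairs of genes that moved in the same direction, 4 had ratios that overlapped between the groups, which does not show that these ratios were kept. Pik3r1 over Grb14 averaged 2.57 fasted and 2.88 fed (geometric means, n = 3 each; exact permutation p = 0.7), Irs2 over Pdk4 0.378 fasted and 0.444 fed (exact p = 0.4), and Pik3ip1 over Pdk4 0.111 fasted and 0.0867 fed (exact p = 0.4). Slc2a4 over Grb14, with geometric means of 6.92 fasted and 4.29 fed, also overlapped between groups (exact p = 0.2). In the other pairs, Slc2a4 over Pik3r1 (2.69 fasted and 1.49 fed) and Irs2 over Pik3ip1 (3.39 fasted and 5.12 fed), the groups did not overlap.

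**Figure D4:**
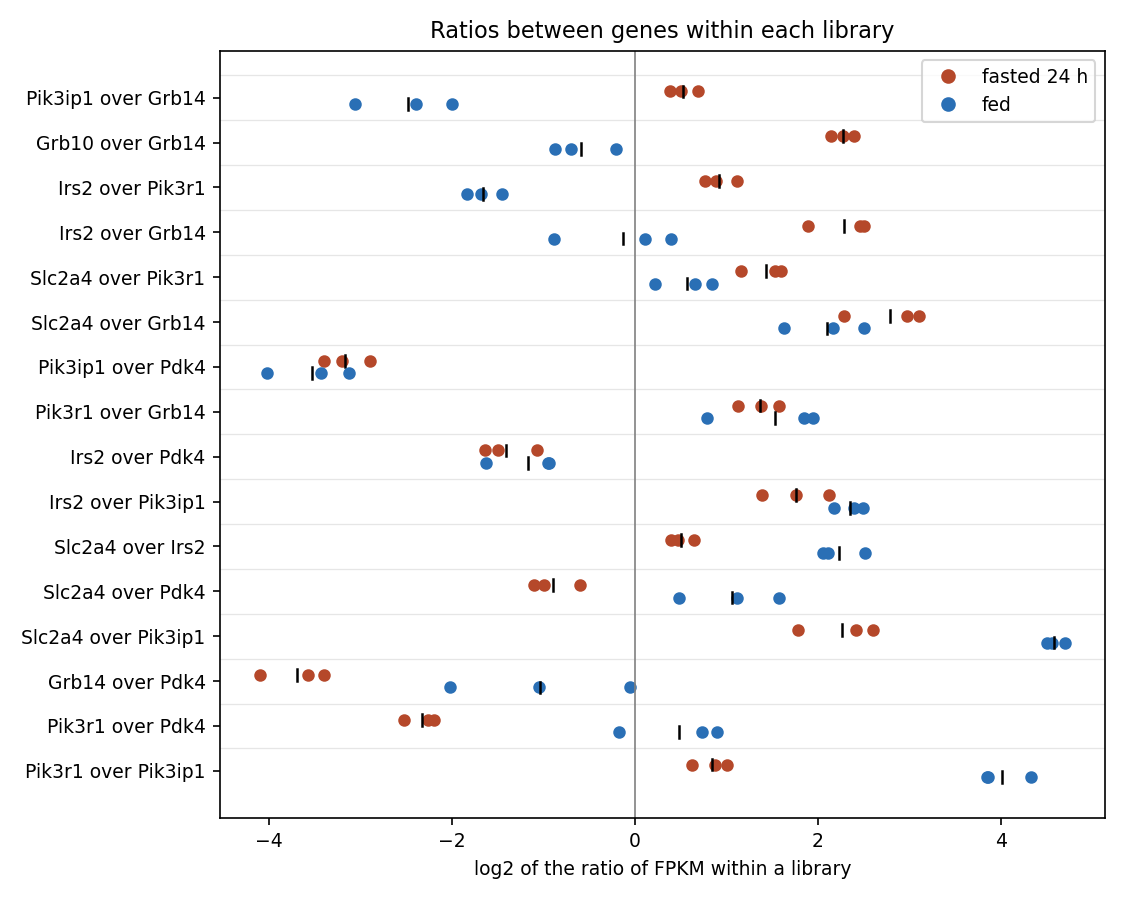
Log2 of the ratio of FPKM between 2 genes within each library (x axis) for 16 pairs, with 3 fasted and 3 fed points per pair and a black tick at each group's mean. Pairs at the top (Pik3ip1 over Grb14, Grb10 over Grb14) were higher in fasted libraries, and those at the bottom (Pik3r1 over Pdk4, Pik3r1 over Pik3ip1) were lower, with no overlap.

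At the receptor level, 6 of 26 listed genes of the insulin receptor, its docking proteins and their inhibitors were held. Of these 4 were higher and 2 lower in fasted tissue, where 41.1% of all genes tested were higher and 49.4% lower, with a median log2 fold change of 0.67, against -0.34 over all genes tested. Grb10, which encodes an adaptor of the same family as Grb14 that also inhibits the insulin receptor, rose to 39.0, 28.6 and 30.0 FPKM in fasted tissue, against 10.4, 19.3 and 13.7 FPKM in fed tissue (log2 fold change 1.14 ± 0.22; limma adjusted p = 0.00461). Grb10 and Grb14 thus moved in opposite directions, and Grb10 over Grb14 was 4.86, 5.27 and 4.43 in fasted libraries, against 0.545, 0.617 and 0.865 in fed ones. The insulin receptor gene Insr rose, at 27.5, 27.9 and 22.4 FPKM fasted and 16.7, 14.1 and 16.3 FPKM fed (0.69 ± 0.14), as did Igf1r (0.64 ± 0.19), the receptor gene for insulin-like growth factor. Ptprf, a receptor phosphatase gene, fell by 0.61 with overlapping groups (limma adjusted p = 0.0443). With median-ratio scaling it missed the threshold (adjusted p = 0.118), as it did without fed replicate 1, 2 or 3, and without fasted replicate 2 or 3 (adjusted p from 0.0586 to 0.138 over the libraries left out). The call of Igf1r was lost without fed replicate 3 (adjusted p = 0.0502). Over all annotated genes none of the 6 passed (0), while all 6 had an unadjusted limma p under 0.05, as had 2753 of the 2999 genes tested.

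Among PI3K subunits and their inhibitors, Inppl1, the gene of a lipid phosphatase that acts on the product of PI3K, was held beside Pik3r1 and Pik3ip1. Inppl1 had 40.3, 32.6 and 33.4 FPKM fasted and 24.9, 24.4 and 22.4 FPKM fed, so the groups did not overlap, and it rose by 0.55 ± 0.13 on the log2 scale (limma adjusted p = 0.00747). Genes of the catalytic subunits were on the list but not among the genes held, so they have no values here.

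Downstream, 10 of 30 listed genes of AKT, the mTOR complexes and FOXO were held, of which 6 were higher and 4 lower (median 0.49), beside 41.1% higher and 49.4% lower among all genes tested. Ddit4, whose product restrains mTORC1, had 137, 195 and 137 FPKM fasted and 26.5, 27.3 and 33.2 FPKM fed (2.38 ± 0.17; limma adjusted p = 0.000314). Trib3, a pseudokinase gene whose product binds AKT, had 20.6, 14.9 and 14.8 FPKM fasted and 3.75, 4.13 and 2.47 FPKM fed (limma adjusted p = 0.000621). Sgk1, encoding a kinase related to AKT, rose by 1.59 ± 0.31. The mTOR inhibitor gene Deptor (-1.27 ± 0.25) and the mTORC2 subunit gene Mapkap1 (-0.72 ± 0.13) fell. Ddit4 and Trib3 alone of this list passed over all annotated genes, and the falls numbered 2 with median-ratio scaling and without fed replicate 1.

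Among glucose transporters, GLUT4 traffic genes and hexokinases, 13 of 38 listed genes were held, and 11 of them fell while 2 rose (median -0.43, against -0.34 over all genes tested, of which 49.4% fell and 41.1% rose). Myo1c, a myosin gene whose product helps GLUT4 vesicles reach the membrane, had 42.8, 53.0 and 51.6 FPKM fasted and 94.5, 110 and 101 FPKM fed (-1.04 ± 0.13; limma adjusted p = 0.00125). Its log2 fold change lay close to that of Slc2a4. Slc2a13, a myo-inositol transporter gene, had 1.47, 1.47 and 1.10 FPKM fasted and 4.32, 4.23 and 4.33 FPKM fed (-1.18 ± 0.15). Smaller falls were those of Tbc1d4 (-0.47 ± 0.13), encoding the AKT substrate that holds GLUT4 vesicles back, and Lnpep (-0.54 ± 0.16), encoding an aminopeptidase carried in the same vesicles. Myo5a, another myosin gene, rose by 0.86 ± 0.14.

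The second rise on this list was Slc2a1, the basal glucose transporter GLUT1, named after its values were seen. It had 16.5, 20.4 and 10.3 FPKM fasted and 11.1, 5.18 and 6.24 FPKM fed, so the groups overlapped (0.99 ± 0.31; limma adjusted p = 0.0184). Slc2a13, Myo1c and Slc2a4 passed over all annotated genes. Falls on the list numbered 3 with median-ratio scaling, under which Tbc1d4 (adjusted p = 0.081) and Lnpep (adjusted p = 0.059) missed the threshold. They numbered 6 with quantile scaling and without fed replicate 1, and 7 without fasted replicate 1 or fed replicate 3. Rises numbered 1 without fasted replicate 1 or 2 and without fed replicate 2 or 3.

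For pyruvate entry and the pyruvate dehydrogenase complex 10 of 15 listed genes were held, with 2 higher, 7 lower and 1 not called (median -0.43), beside 41.1% higher and 49.4% lower among all genes tested. None of the 7 falls passed over all annotated genes (0), though each had an unadjusted limma p under 0.05. The rises were 2 kinases of the complex. Beside Pdk4, Pdk2 had 259, 331 and 305 FPKM fasted and 90.3, 47.6 and 112 FPKM fed (1.91 ± 0.29; limma adjusted p = 0.00217, and 0.0401 over all annotated genes). Pdk2 was thus more abundant per length than Pdk4 in every library. Another kinase gene of the family, Pdk3, moved the other way, at 3.72, 4.23 and 4.03 FPKM fasted and 8.04, 7.12 and 7.30 FPKM fed (-0.76 ± 0.13). Genes of the complex itself fell, among them the subunit genes Pdhb (-0.82 ± 0.19), Pdhx (-0.61 ± 0.14) and Dld (-0.43 ± 0.12). With quantile scaling 4 genes of this list were lower and with median-ratio scaling 3, and Dld missed the threshold under both (adjusted p = 0.127 and 0.0865).

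Irs2, Pik3ip1 and Pdk4 also belong to a list of 26 genes known to respond to FOXO factors, of which 14 were held and 13 tested, G6pc being too low. Of the 13, 11 were higher and 2 lower (median 0.85), beside 41.1% higher and 49.4% lower among all genes tested. The catalase gene Cat had 1442, 2140 and 1190 FPKM fasted and 428, 365 and 416 FPKM fed (1.94 ± 0.22; limma adjusted p = 0.000944). Sesn1, a stress-responsive sestrin gene (1.08 ± 0.22), the mitophagy receptor gene Bnip3 (0.89 ± 0.17) and the ubiquitin ligase gene Fbxo32 (0.85 ± 0.14) rose, as did Insr. Cited2 (-1.17 ± 0.30) and Sod2 (-0.56 ± 0.12) fell and were named after their values were seen. Cat and Pik3ip1 passed over all annotated genes. The lists were written with earlier results of these data known, so their counts are a description only.

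**Figure D5:**
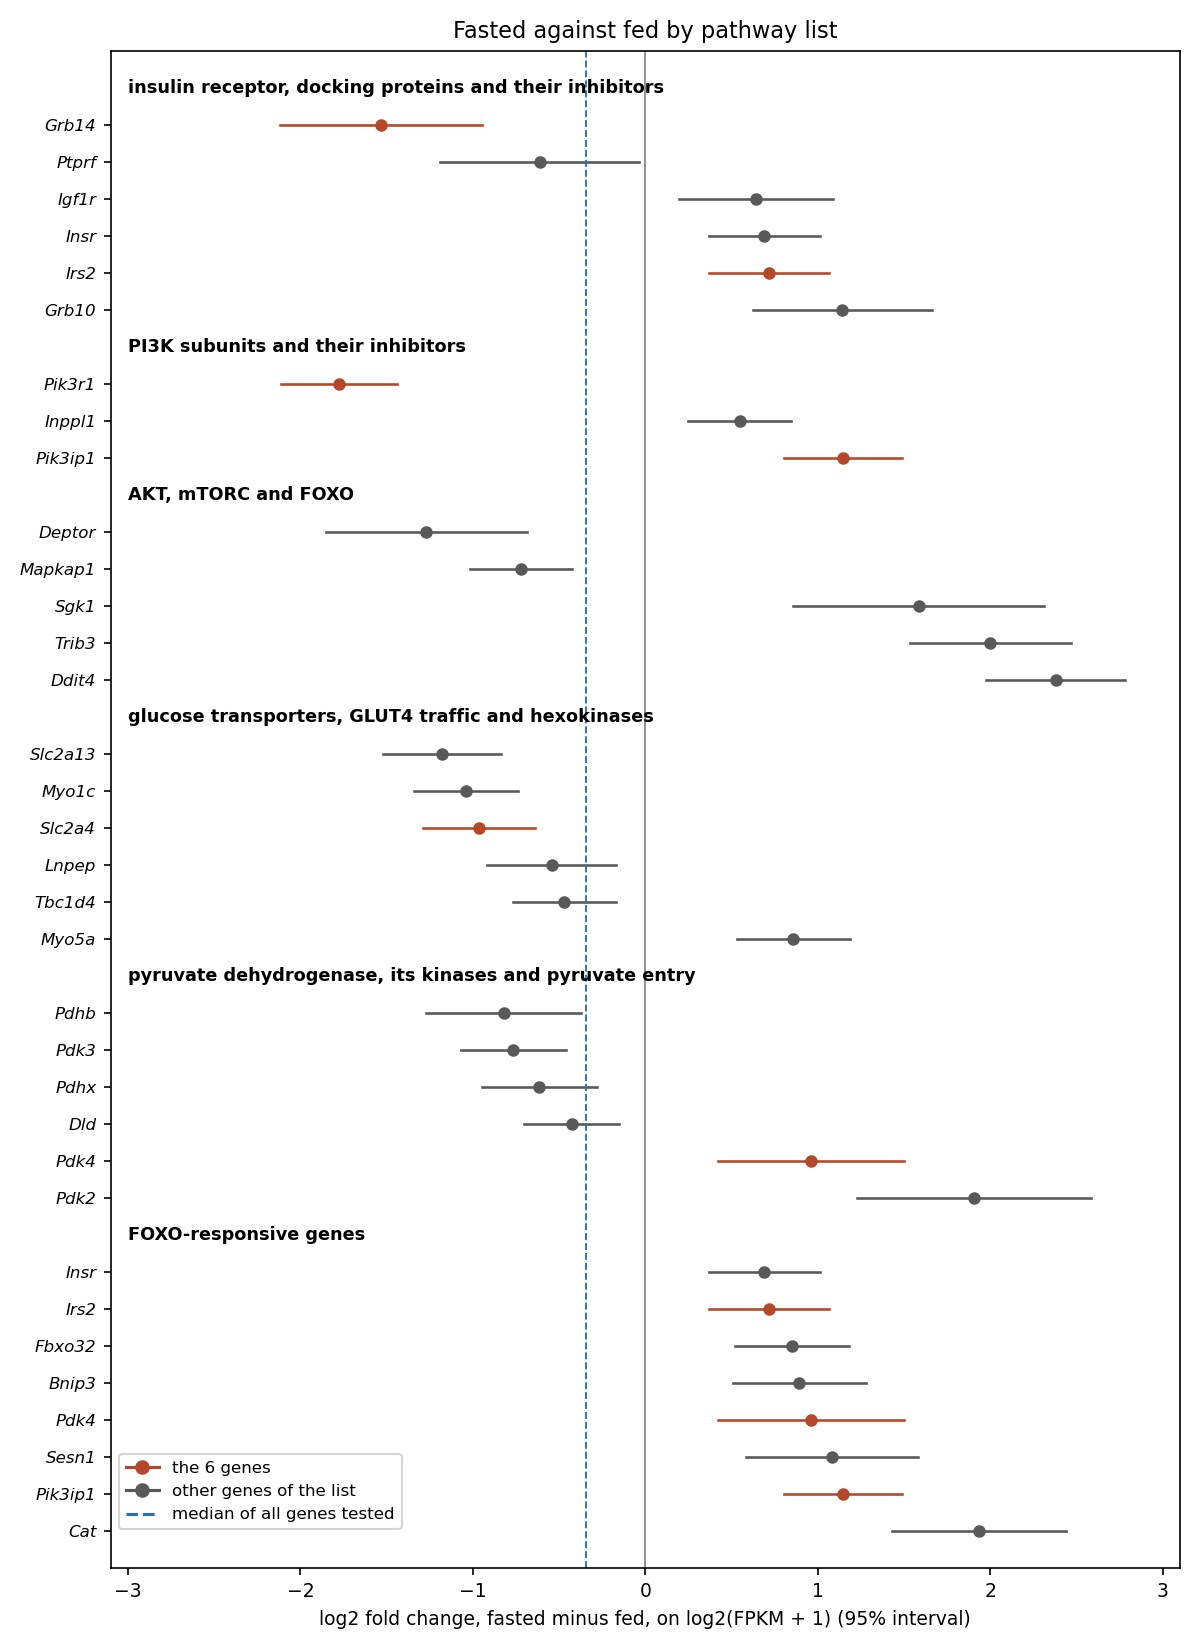
Log2 fold change, fasted minus fed, on log2(FPKM + 1) with 95% intervals for the 6 genes and up to 5 other genes of each pathway list with the smallest p, ordered by change within a list; the dashed line is the median of all genes tested (-0.34). Genes of GLUT4 traffic and of the pyruvate dehydrogenase complex lie mostly left of 0 and the FOXO-responsive genes shown lie right of it. The FOXO-responsive genes Cited2 and Sod2, which fell, are not among those drawn.

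Whole-library scaling moves these values, since the median log2 fold change of the genes tested was -0.34 as deposited, -0.15 with median-ratio scaling and -0.21 with quantile scaling. Relative to the median as deposited, the changes were 1.49 for Pik3ip1, 1.30 for Pdk4 and 1.06 for Irs2, and -0.62 for Slc2a4, -1.19 for Grb14 and -1.43 for Pik3r1. Hardly any gene held was near no change, so neither this median nor either scaling can be taken as a neutral reference. With median-ratio scaling the change of Slc2a4 was -0.76 and that of Irs2 0.92, and no gene of the 6 changed direction or lost its call under either scaling. Over all genes tested 1237 were higher and 787 lower with median-ratio scaling, against 1232 higher and 1482 lower as deposited.

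Within the groups, the 6 genes deviated together only in part. Fed replicate 2 had the highest fed value of Slc2a4 and Grb14, which fell, and the lowest of Irs2 and Pdk4, which rose. Pik3r1, which fell, went the other way with its lowest fed value there, and Pik3ip1 lay between the other fed values. Over the 1482 genes lower in fasted tissue, this library had the top fed value for 63.0%, and over the 1232 higher genes it had the lowest fed value for 49.8%. Without it the log2 fold change of Grb14 was -1.26 and that of Pdk4 0.76. For Irs2 the highest fasted value came from fasted replicate 3, for Pik3ip1 from fasted replicate 1 and for Pdk4 from fasted replicate 2.

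The genes nearest in profile were found by the root mean square distance between log2(FPKM + 1) values centred on each gene's mean over the 6 libraries, among 2938 genes. For Slc2a4 they were Pgam1 (distance 0.054, log2 fold change -0.999) and Col4a1 (0.062, -0.96). Rogdi (0.058, 1.04) and Mxi1 (0.069, 1.09) came nearest to Pik3ip1, and Bhlhb9 (0.064, 0.76) and Pink1 (0.092, 0.61) to Irs2. The nearest to Pik3r1 was Creb3l1 (0.089, -1.71), and those to Grb14 were Cyb5b (0.103, -1.45) and Sc5d (0.110, -1.46). Pdk4 had the least close neighbours, Pkp4 (0.166, 0.99) and Acss3 (0.169, 1.23). The measure is a description over 6 libraries of 2 groups.

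Markers of the cell types in the tissue moved as well, as did most genes tested (41.1% higher and 49.4% lower in fasted tissue). Markers not held have no values here, so the counts do not describe a marker list as a whole. Of 14 adipocyte markers 6 were held and all fell, with summed FPKM of 3297 to 3875 in fasted libraries and 5977 to 7155 in fed libraries. Their median log2 fold change was -1.18, with Lep at -5.01, Aoc3 at -1.89, Mrap at -1.19, Plin1 at -1.17, Tshr at -0.94 and Retn at -0.58, beside -0.96 for Slc2a4. Endothelial markers rose (5 of 5 held of 12; 403 to 571 fasted and 244 to 283 fed), as did red cell genes (5 of 5 held of 7; 3955 to 10136 fasted and 1892 to 2800 fed) and 4 of 5 held mural genes of 8 (126 to 219 fasted and 58.9 to 101 fed). Of 11 progenitor or fibroblast markers 4 were held, with 2 higher and 2 lower (1239 to 1851 fasted and 798 to 1069 fed).

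Skeletal muscle also expresses Slc2a4 and Pdk4, and of its 13 markers Myl1 alone was held, at 11.4 to 24.4 FPKM fasted and 54.1 to 68.3 FPKM fed. Single markers were held for macrophages (Itgam, 2.12 to 3.86 fasted and 4.55 to 8.38 fed), lymphocytes (Cd3e, 0.89 to 0.98 fasted and 0.15 to 0.23 fed) and epididymal epithelium (Adam7, 0 to 0.03 fasted and 0.02 to 2.05 fed), and none of 10 for mesothelium (0). The part of cell composition in the changes of the 6 genes was not tested. The tissue label was met by the adipocyte genes held, with Retn at a mean of 2758 FPKM fasted and 4156 FPKM fed.

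Libraries of a group correlated at Spearman 0.973 to 0.985 and libraries of different groups at 0.832 to 0.926 over the genes held. Summed FPKM over those genes was 180058 to 188061 in fasted and 190382 to 209201 in fed libraries. Sequencing depth is unknown, because the files give FPKM with at most 2 decimals, so no counting error is given. The labels do not say that each library came from a separate mouse, so p-values measure the spread between these libraries only.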

How the data were processed

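Bulk RNA sequencing of 6 libraries was grouped by the treatment label, 3 fasted and 3 fed. Replicate numbers follow accession order and carry no pairing. Per the labels' protocols, RNA was extracted from whole tissue with Trizol and made into Illumina libraries. Per the file headers, the authors deposited FPKM. RSEM and the builds mm10 and GRCm38.p6 come from the submitters' processing notes; the sources used here give no version, no aligner and no rule for the choice of the 3162 genes.

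Symbols and coordinates came from GENCODE M21 (GRCm38), which held 3158 of the identifiers. Genes averaging 1 FPKM or more were tested on log2(FPKM + 1) with limma 3.58.1 in R 4.3.3 (eBayes with trend, two-sided, Benjamini-Hochberg). The step was checked on simulated data in which only a small part of the genes changed. Most genes tested here passed, so the check does not cover that setting. Ratios used exact permutation tests (scipy 1.17.1). Alternatives were pseudocounts, filters, scalings, the trend, the adjustment and leaving out each library; adjustment over protein-coding genes was added after the data were seen.

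The members and lists were chosen with earlier results of these data known. Genes named were the 6 members, the 5 genes of each list with the smallest p, members aside, and the 2 nearest profiles per member; 2 genes that this rule names are not reported here. Promoters came from RefSeq for 5 of the 6 members, Slc2a4 being the other.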

Additional observations from a re-analysis of the deposited data

How the results depend on the processing

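All 6 genes kept their direction under every alternative run, and their call under the other pseudocounts, filters and scalings, without the trend and without any single library. Adjusting over all 55450 annotated genes left 1 of the 3 rises and 2 of the 3 falls: Irs2 (0.72, adjusted p = 0.102), Pdk4 (0.96, 0.155) and Grb14 (-1.53, 0.0511) missed the threshold, and 172 genes were higher and 192 lower. With median-ratio scaling 787 genes were lower, while 1237 were higher. The adjustment over annotated genes adds untested genes at the largest possible p. Over the 21951 protein-coding genes, chosen after seeing the data, 557 genes were higher and 495 lower, and of the 6 Pdk4 alone missed (0.96, adjusted p = 0.0612). With single libraries left out, changes ranged from -1.86 to -1.64 for Pik3r1, -1.07 to -0.85 for Slc2a4, 0.60 to 0.78 for Irs2 and 1.03 to 1.21 for Pik3ip1. The difference in Pik3r1 over Grb14 ranged from -0.54 to 0.042 and so turned its sign; the cause was not tested. No other ratio turned with a library left out or a pseudocount of 1. No paired analysis was possible because replicate numbers only follow accession order. The choice of genes before deposit and the unknown depth limit every count.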
